A study of Homo sapiens with 6 samples.

Results

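The genes described here are the targets of the transcription factor NRF2 and the antioxidant enzymes, a set of 37 gene symbols drawn up from textbook biology and matched to the symbols in the deposited table. The set and the other lists used below were chosen with earlier results of these data known, so their shares of calls are descriptive only. Of the 37, 35 were listed among 18164 genes in all. SRXN1 and SOD2 were not found under their symbols and were not analysed here. One listed gene, OSGIN1, was below the 1 TPM used as the minimum for testing, so 34 were tested. TPM (a transcript's share of each library's fixed total) corrects each gene for its length, so levels can be set side by side between genes.

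The study took a commercial HEK293 line, a human embryonic kidney line grown here in suspension and a common host for producing adeno-associated virus (AAV) vectors. In the transfected group, 3 libraries came from cells that received 2 plasmids with a polymer reagent for AAV synthesis, and collected 18 h later. In the untransfected group, 3 libraries came from cells that received PBS and were collected at the same time. The controls lacked both the DNA and the reagent, so responses to DNA, reagent and AAV synthesis cannot be told apart. The labels do not say that replicates came from separate cultures, so the p-values refer to the spread among 3 and 3 libraries, part of which may be technical.

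NRF2, encoded by NFE2L2, is held at a low level by KEAP1, which passes it to an ubiquitin ligase for degradation. Oxidants and electrophiles modify cysteines of KEAP1, NRF2 then accumulates, pairs with a small MAF protein and binds the antioxidant response element, a short DNA motif near genes for glutathione synthesis, thioredoxin reduction, NADPH supply and iron storage. BACH1 competes for the same motif. Much of NRF2's control acts on the protein, which RNA-seq does not measure. TXNIP stands apart from the other genes: its protein is an alpha-arrestin that binds reduced thioredoxin, and its transcription is driven mainly by MondoA with MLX in response to glucose phosphates.

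The motifs of these 2 kinds of control are shown because the module holds genes of both. The antioxidant response element core, TGACNNNGC on either strand, was searched in windows from 250 bases before to 50 bases after each RefSeq start site (GRCh38.p14). A window was given for 26 of the 35 listed genes, 38 windows in all. The core was found in 8 of the 38, belonging to 7 genes, and in 13.3% of the 35116 windows of all genes. The stretches of 29 bases below read along each gene's strand, with the match in capitals; the last 4 carry the core on the other strand.
GSTP1, chr11:67583736-67583764, plus strand: gccggcgccgTGACTCAGCactggggcgg
ME1, chr6:83431170-83431198, minus strand: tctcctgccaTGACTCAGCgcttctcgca
TXNRD1, chr12:104215670-104215698, plus strand: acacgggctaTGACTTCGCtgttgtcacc
GCLM, chr1:93909446-93909474, minus strand: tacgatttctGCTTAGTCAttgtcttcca
KEAP1, chr19:10502784-10502812, minus strand: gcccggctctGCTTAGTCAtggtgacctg
MAFF, chr22:38201862-38201890, plus strand: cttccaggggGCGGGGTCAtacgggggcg
PGD, chr1:10398853-10398881, plus strand: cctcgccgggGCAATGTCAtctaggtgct
A match to these letters is a description of the sequence, not evidence of binding.

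A second pattern, a pair of E-box-like elements CACGNG with 5 bases between them, as in a carbohydrate response element, was found in 20 of the 35116 windows, 0.057%. TXNIP was the only listed gene of the module with it, from 88 to 72 bases before the start site. The 200 bases upstream of TXNIP, positions -250 to -51, are shown because TXNIP had the largest change of the module; they overlap no annotated exon, and capitals mark the match.
TXNIP, chr1:145996630-145996829, minus strand: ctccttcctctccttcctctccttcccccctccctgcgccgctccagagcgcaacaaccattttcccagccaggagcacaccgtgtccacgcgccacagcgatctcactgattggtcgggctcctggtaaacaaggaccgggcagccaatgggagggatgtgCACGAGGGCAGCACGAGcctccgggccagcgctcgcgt

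Most of the module was abundantly expressed in both groups. FTL, the ferritin light chain, had the highest mean over the 6 libraries, 1607 TPM, and alone made up 18.8% of the module's summed TPM. Next in order were TXN (822 TPM), PRDX1 (685 TPM), SOD1 (657 TPM) and FTH1 (645 TPM). The range of PRDX1 over libraries overlapped those of TXN, SOD1 and FTH1, so its place in the order is not separated from theirs beyond the spread. NQO1, a quinone reductase often used as a readout of NRF2, lay near the bottom at 8.99 TPM, with only MAFF (1.90 TPM) and OSGIN1 (0.677 TPM) lower.

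The HEK293 identity of the libraries was checked on marker genes. Of 7 lineage markers, 6 were listed, and their summed level was 325.6 to 357.9 TPM in transfected and 236.0 to 277.8 TPM in untransfected libraries. None of 3 endothelial markers was listed. The mitochondrially encoded mRNAs made up 27.1% to 30.1% of TPM in transfected and 30.0% to 36.4% in untransfected libraries, with untransfected replicate 3 the highest. That library was the lowest of its group for 28 of the 35 listed genes, and transfected replicate 1 was the lowest of its group for 19. Because TPM has a fixed total, a larger mitochondrial share lowers the sum of all other values. How far this bears on the low values of that library was not tested. Results that turn on untransfected replicate 3 are given with and without it.

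The module as a whole was little changed by transfection. With limma on log2(TPM + 1), an adjusted p below 0.05 was reached by 4 of 34 tested genes in the higher direction (11.8%) and by 2 in the lower direction (5.88%). Over all 16145 tested genes the same rule called 20% higher and 10.2% lower, 30.2% in either direction. With all 6 libraries on this scale, the module's share was below the background in both directions. Its lower share was not below it under the 3 other scalings described further on, or without untransfected replicate 3. The genes that rose were TXNIP, PRDX4, TKT and MAFF, and those that fell were HMOX1 and CAT. Another 28 did not pass, and 12 of the 34 had an unadjusted p below 0.05. Lower calls numbered 0 without transfected replicate 1 or 2 or untransfected replicate 1 or 2, where 6.07% to 7.7% of all genes were lower. They numbered 1 without transfected replicate 3 (2.94%, beside 6.87% of all genes). Without untransfected replicate 3 they numbered 6 (17.6%, beside 12.6% of all genes). Higher calls numbered 2 (5.88%) without transfected replicate 3 or untransfected replicate 2, where 11.8% and 17.4% of all genes were higher.

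The 3 values of a group lay wholly above those of the other, with transfected higher, for 7 of the 34 genes, and with transfected lower for 5. The same held for 29.2% and 17.3% of all tested genes, 46.5% in either direction. The median log2 fold of the 34 was 0.04, beside 0.05 for all tested genes. Among the 28 that did not pass, the 95% interval reached at most 0.52 (TXNRD1) and at least -0.52 (PRDX3), each a 1.43-fold change on this scale. TXNIP and PRDX4 kept their call in all 16 alternative analyses. The calls of TKT, MAFF, HMOX1 and CAT did not hold in all, and the scalings, filters and left-out libraries that ended them are given with each gene. Each of these calls was also lost with the replicate number as a block (limma adjusted p 0.117, 0.0623, 0.0799 and 0.0816, in that order). In bulk RNA, fewer cells of a type and less RNA per cell cannot be told apart, nor can a small change in all cells and a larger one in the cells that took up DNA.

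**Figure D1:**
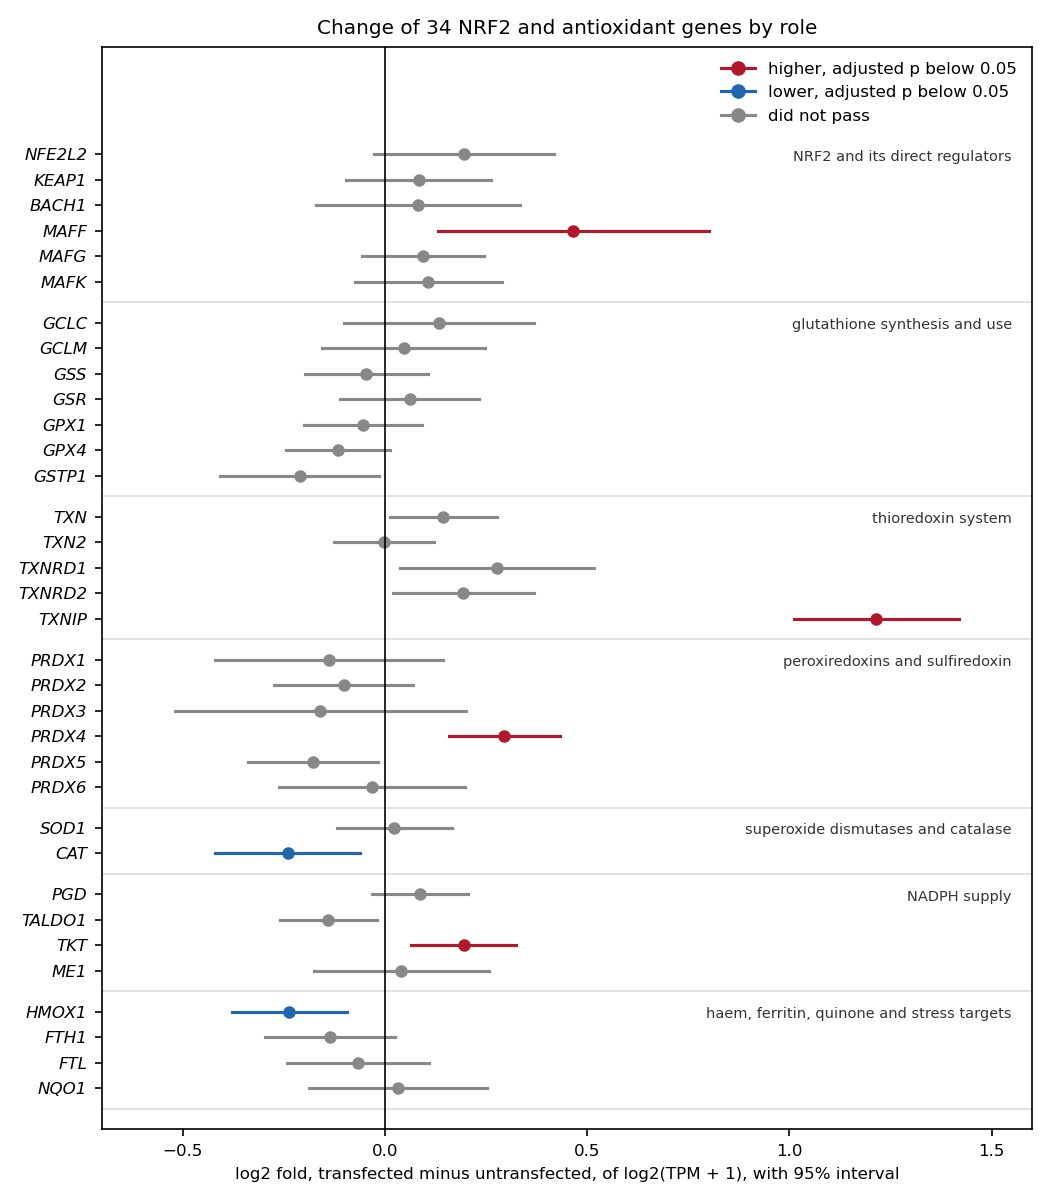
Log2 fold (transfected minus untransfected, on log2(TPM + 1)) of the 34 tested genes grouped by role, with 95% intervals; colour marks genes that passed. TXNIP stands at 1.22, and every other gene lies between -0.24 and 0.47.

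NRF2 and its direct regulators came first by role. NFE2L2 was at 41.0, 45.0 and 45.9 TPM in transfected replicates 1 to 3 and at 40.1, 42.2 and 32.9 TPM in untransfected replicates 1 to 3. The groups overlapped, and the log2 fold of 0.20 (95% interval -0.03 to 0.42) did not pass (adjusted p = 0.165). Without untransfected replicate 3, the lowest library, the log2 fold was 0.09 (adjusted p = 0.330), and under the 3 other scalings it was 0.10 to 0.14. KEAP1, its inhibitor, was at 46.7 to 51.6 TPM against 42.3 to 50.2 TPM (log2 fold 0.08, adjusted p = 0.458). BACH1, the competing repressor, was at 19.4 to 22.6 against 16.6 to 21.6 TPM (log2 fold 0.08, adjusted p = 0.613). The within-library ratio of NFE2L2 to KEAP1, which does not depend on how libraries are scaled, was 0.887 ± 0.0768 in transfected and 0.818 ± 0.0521 in untransfected libraries (SD, n = 3 each; exact permutation p = 0.2, where 0.1 is the smallest that 3 against 3 allows).

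The small MAF proteins are the partners with which NRF2 or BACH1 binds DNA. MAFF was the one regulator that passed: 2.19, 2.39 and 2.48 TPM in transfected against 1.77, 0.97 and 1.62 TPM in untransfected libraries, with all transfected values above all untransfected ones. Its log2 fold was 0.47 (SE 0.146, 95% interval 0.13 to 0.80, adjusted p = 0.0438), a scale that understates the change of so low a gene. The call was lost under each of the 3 other scalings (adjusted p 0.0631 to 0.0825), with a pseudocount of 0.1 (0.0534), and without transfected replicate 1 (0.0710), 2 (0.1204) or 3 (0.127) or untransfected replicate 2 (0.0970), and without transfected replicate 1 and untransfected replicate 3 together (0.0648). MAFF lies at chr22:38200767-38216511 on the plus strand of GRCh38 and overlaps PLA2G6 on the other strand; the strand setting of the counting is not given in the sources used here. MAFG, at 31.8 to 35.3 against 30.6 to 32.6 TPM, and MAFK, at 18.2 to 20.2 against 16.2 to 18.6 TPM, did not pass (adjusted p 0.316 and 0.343).

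None of the 7 genes of glutathione synthesis and use passed on deposited TPM. GCLC and GCLM, the catalytic and modifier subunits of the ligase that limits glutathione synthesis, had log2 folds of 0.13 and 0.05 (adjusted p 0.358 and 0.724). GCLC was at 25.4, 31.3 and 27.0 TPM in transfected and 27.1, 26.6 and 22.3 TPM in untransfected libraries, and the groups overlapped. Its log2 fold was 0.05 without untransfected replicate 3 or without transfected replicate 2 (adjusted p 0.713 and 0.762). The GCLM to GCLC ratio was 0.849 ± 0.0600 against 0.903 ± 0.00852 (SD, n = 3 each), without overlap between the groups (exact permutation p = 0.1, the smallest possible, adjusted p = 0.3 over 6 ratios). GSS, which completes glutathione synthesis, was at 43.4 to 47.0 against 44.0 to 49.4 TPM, and GSR, which reduces oxidised glutathione, at 86.6 to 92.6 against 77.5 to 91.8 TPM; adjusted p was 0.639 and 0.574. GSS passed as lower on the scale that omits mitochondrial and the 20 most abundant genes (0.0392).

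The glutathione-using enzymes GSTP1 and GPX4 missed the threshold on deposited TPM but passed as lower under each of the 3 other scalings. GPX4, which reduces lipid hydroperoxides in membranes, was at 245, 231 and 246 TPM in transfected and 253, 272 and 258 TPM in untransfected libraries, without overlap. Its log2 fold was -0.12 (adjusted p = 0.154), with an adjusted p of 0.00947 to 0.0468 in the other scalings. GSTP1, a conjugating transferase, was at 391, 349 and 407 TPM against 444, 483 and 401 TPM, overlapping through untransfected replicate 3. Its log2 fold was -0.21 (adjusted p = 0.0993), and it passed without that library (0.0274) and under the other scalings (0.00772 to 0.0203). GPX1, the abundant soluble glutathione peroxidase, was at 294 to 335 against 328 to 336 TPM (adjusted p = 0.555), and passed as lower under quantile normalization (0.0486).

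TXNIP had the largest change in the module. It was at 140.1, 152.8 and 158.6 TPM in transfected and 66.2, 70.5 and 56.6 TPM in untransfected libraries. Every transfected library was above every untransfected one, with a gap wider than the range within either group. The means were 150.5 ± 9.50 and 64.4 ± 7.10 TPM (SD, n = 3 each), a 2.34-fold rise, with a log2 fold of 1.22 (SE 0.0886, 95% interval 1.01 to 1.42, adjusted p = 0.000162). Of 16145 tested genes it ranked 119th by increase, and over all 16 alternatives its log2 fold stayed between 1.10 and 1.28 with an adjusted p of at most 0.0026. TXNIP is protein-coding, at chr1:145992435-145996600 on the minus strand, and overlaps no other annotated gene.

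Neither the thioredoxins nor their reductases passed on all 6 libraries of deposited TPM. TXN, the cytosolic thioredoxin, was at 841, 879 and 870 TPM in transfected against 804, 796 and 745 TPM in untransfected libraries, without overlap (log2 fold 0.14, adjusted p = 0.0946); it passed without transfected replicate 1 and untransfected replicate 3 together (0.0384). TXNRD1, the cytosolic selenoprotein reductase and a classical NRF2 target, was at 107, 124 and 126 TPM against 104, 107 and 84.0 TPM; transfected replicate 1 lay just below untransfected replicate 2. Its log2 fold was 0.28 (95% interval 0.04 to 0.52, adjusted p = 0.0786), and it passed without transfected replicate 1 (0.0478), without that library and untransfected replicate 3 together (0.00459) and under median-ratio scaling (0.0376). Without untransfected replicate 3 alone its log2 fold was 0.17 (0.131).

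TXNRD2, the mitochondrial reductase, was at 14.3 to 15.7 against 12.1 to 13.7 TPM, without overlap (log2 fold 0.19, adjusted p = 0.0890). TXN2, the mitochondrial thioredoxin, was at 254 to 269 against 255 to 273 TPM (adjusted p = 0.977). The ratio of TXN to TXNIP, free of library scaling, was 6.003, 5.75 and 5.49 in transfected and 12.1, 11.3 and 13.2 in untransfected libraries. Transfected cells thus had fewer TXN transcripts per TXNIP transcript in all 3 libraries, a log2 difference of -1.08. Its exact two-sided permutation p was 0.1, the smallest possible, and 0.3 adjusted over the 6 ratios.

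**Figure D2:**
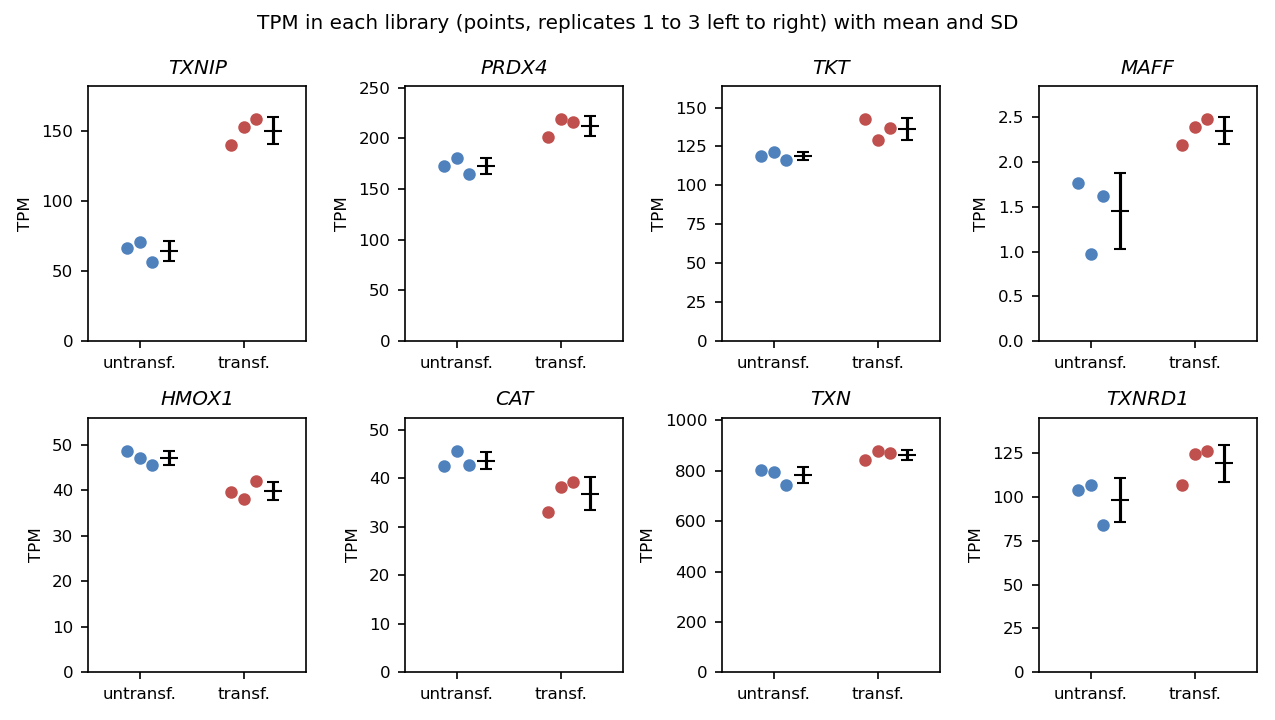
TPM of 8 genes in each library, untransfected and transfected, with the mean and SD beside the points; axes start at 0. TXNIP separates most widely, PRDX4, TKT and MAFF are higher and HMOX1 and CAT lower in all 3 transfected libraries, and TXN does not overlap while TXNRD1 does.

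Peroxiredoxins reduce peroxides through a reactive cysteine that thioredoxin mostly restores. Of 6 tested, only PRDX4, which works in the endoplasmic reticulum, passed on deposited TPM. PRDX4 was at 201, 219 and 216 TPM in transfected and 172, 180 and 165 TPM in untransfected libraries, with all transfected values above all untransfected ones. The means were 212.0 ± 9.58 and 172.6 ± 7.67 TPM (SD, n = 3 each), a rise of 22.9%, with a log2 fold of 0.30 (SE 0.0596, 95% interval 0.16 to 0.43, adjusted p = 0.00823). The call held in all 16 alternatives (log2 fold 0.14 to 0.33, adjusted p at most 0.0430). PRDX4 lies at chrX:23664262-23686399 on the plus strand and overlaps no other annotated gene.

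PRDX5, found in mitochondria, peroxisomes and cytosol, was at 497, 491 and 537 TPM against 570, 619 and 538 TPM. The groups only just failed to touch, and the log2 fold of -0.18 did not pass (adjusted p = 0.0900). PRDX5 passed as lower under each of the 3 other scalings (0.00427 to 0.00878) and without untransfected replicate 3 (0.0297). PRDX1, the abundant cytosolic member, was at 602, 646 and 701 TPM against 778, 801 and 582 TPM, with untransfected replicate 3 the lowest of all 6. Its log2 fold was -0.14 (adjusted p = 0.431), and -0.28 without that library (0.0198). Mitochondrial PRDX3 was at 146, 177 and 190 TPM against 213, 218 and 148 TPM, a log2 fold of -0.16 (adjusted p = 0.479), and -0.34 without the same library (0.0399). PRDX2 and PRDX6 had log2 folds of -0.10 and -0.03 (adjusted p 0.336 and 0.834), and PRDX2 passed as lower under quantile normalization (0.0466).

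Catalase, encoded by CAT, breaks down hydrogen peroxide in peroxisomes. It was at 33.0, 38.2 and 39.2 TPM in transfected and 42.5, 45.6 and 42.6 TPM in untransfected libraries, with every transfected value below every untransfected one. The means were 36.8 ± 3.34 and 43.6 ± 1.78 TPM (SD, n = 3 each), a change of -15.5%, with a log2 fold of -0.24 (SE 0.0777, 95% interval -0.42 to -0.06, adjusted p = 0.0484). The call is marginal: it was lost on leaving out any 1 of the 6 libraries (adjusted p 0.0522 to 0.135), with no filter on low values (0.0506) and with no variance trend (0.0723), and kept under the 3 other scalings (0.00552 to 0.00814). CAT lies at chr11:34438925-34472062 on the plus strand. SOD1, the copper-zinc superoxide dismutase, was at 639 to 689 against 617 to 684 TPM (log2 fold 0.02, adjusted p = 0.803).

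NADPH is the electron source of both the glutathione and thioredoxin systems. Among the genes grouped as NADPH supply and pentose phosphate enzymes, TKT was higher. Transketolase, of the non-oxidative pentose phosphate pathway, was at 142, 129 and 137 TPM in transfected and 119, 121 and 116 TPM in untransfected libraries, without overlap. The means were 136.1 ± 6.87 and 118.7 ± 2.48 TPM (SD, n = 3 each), a rise of 14.6%, with a log2 fold of 0.19 (SE 0.0568, 95% interval 0.06 to 0.33, adjusted p = 0.0342). The call was lost under each of the 3 other scalings (0.132 to 0.360), with no variance trend (0.0694), and without transfected replicate 1 (0.113) or 3 (0.1199) or untransfected replicate 1 (0.0987) or 2 (0.0652). TKT lies at chr3:53224707-53256052 on the minus strand.

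TALDO1, transaldolase of the same pathway, was at 111, 117 and 117 TPM in transfected against 128, 129 and 124 TPM in untransfected libraries. The groups did not overlap, but the log2 fold of -0.14 missed the threshold (adjusted p = 0.0758); it passed as lower under the 3 other scalings (0.00258 to 0.00784) and without untransfected replicate 3 (0.0411). PGD, which makes NADPH in the oxidative branch, was at 418 to 429 against 385 to 409 TPM, without overlap (adjusted p = 0.239). ME1, the cytosolic malic enzyme, was at 56.0 to 63.1 against 50.9 to 63.9 TPM (adjusted p = 0.776).

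HMOX1, the haem-degrading enzyme that BACH1 represses and NRF2 activates, fell by 15.4%. It was at 39.6, 38.0 and 41.9 TPM in transfected and 48.7, 47.0 and 45.5 TPM in untransfected libraries, with no overlap. The means were 39.8 ± 1.98 and 47.1 ± 1.58 TPM (SD, n = 3 each), with a log2 fold of -0.24 (SE 0.0617, 95% interval -0.38 to -0.09, adjusted p = 0.0229). HMOX1 kept its call under the 3 other scalings (0.00312 to 0.00598) and lost it without transfected replicate 1 (0.0613) or 2 (0.0889) or untransfected replicate 1 (0.0895) or 2 (0.0604). It lies at chr22:35380361-35394214 on the plus strand.

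The iron-storage chains and NQO1 did not pass. FTH1 was at 661, 581 and 602 TPM in transfected against 700, 635 and 691 TPM in untransfected libraries (log2 fold -0.14, adjusted p = 0.176), and FTL at 1467 to 1663 against 1527 to 1740 TPM (adjusted p = 0.550). The FTH1 to FTL ratio was 0.392 ± 0.0287 against 0.413 ± 0.0442 (SD, n = 3 each; exact permutation p = 0.5). GENCODE 29 names 25 pseudogenes of FTH1 and 16 of FTL, so reads could be shared with near copies. NQO1 was at 9.33, 8.0 and 10.02 TPM against 8.85, 9.26 and 8.47 TPM, with the groups interleaved (log2 fold 0.03, adjusted p = 0.825).

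How libraries were scaled bore more on down than up calls, in the module and over all genes alike. Under the deposited scale 66.3% of all calls were higher, under median-ratio scaling 52.5%, after quantile normalization 50.3%, and 45.2% after leaving out mitochondrial and the 20 most abundant genes. The module's lower calls went from 2 to 6, 8 and 7 of 34 (17.6%, 23.5% and 20.6%), where 17.3%, 17.9% and 20.1% of all tested genes were lower. Its higher calls went from 4 to 3, 2 and 2 (8.82%, 5.88% and 5.88%), where 19.1%, 18.1% and 16.6% of all tested genes were higher. In all 3 of these scalings 6 genes were lower: CAT, HMOX1, GPX4, GSTP1, PRDX5 and TALDO1. Within the non-mitochondrial total, the module took 1.16% to 1.23% of TPM in transfected and 1.29% to 1.31% in untransfected libraries. No gene passed in the opposite direction under any alternative, but the uncalled fold of 11 of the 34 changed sign in at least 1.

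**Figure D3:**
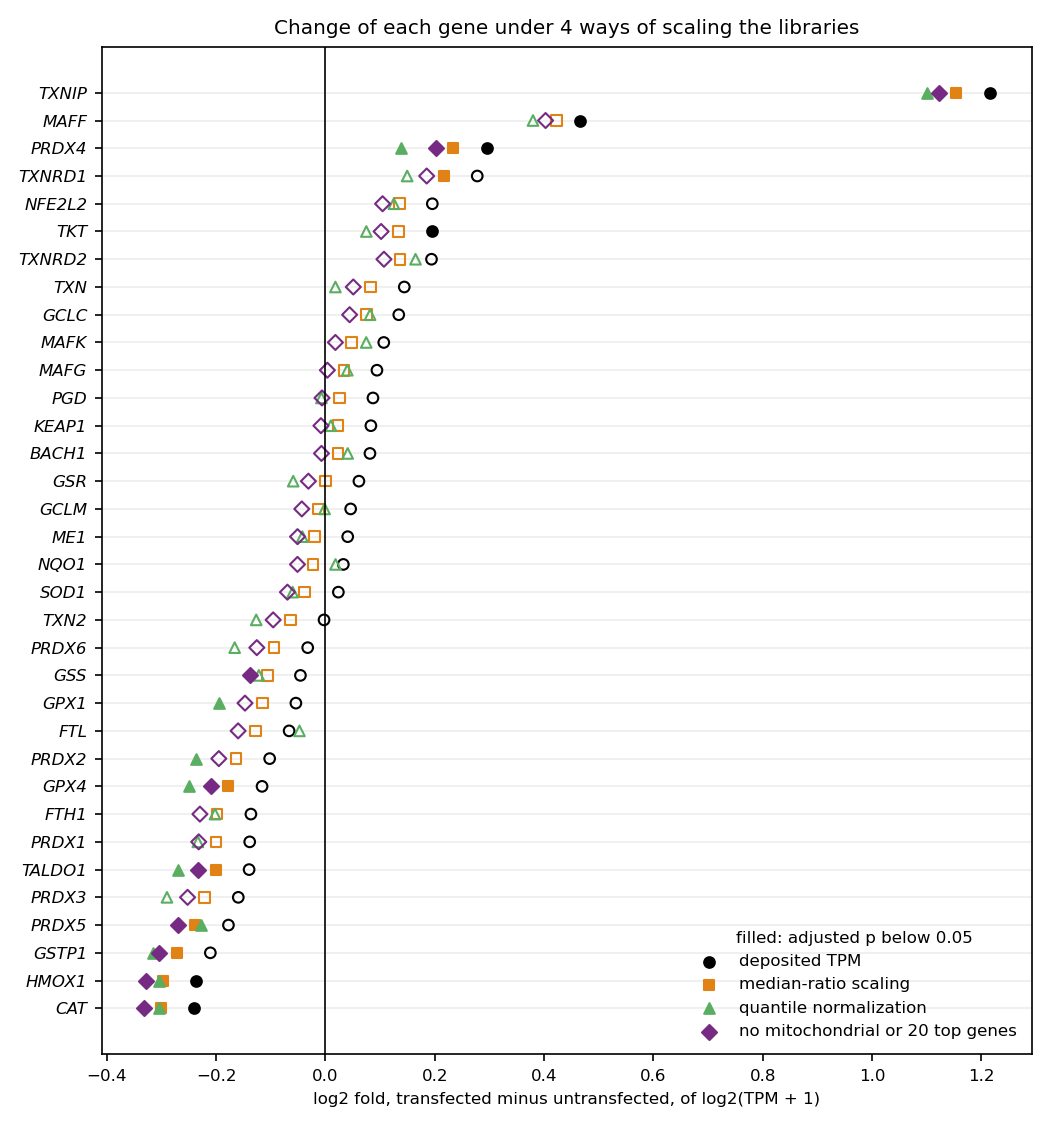
Log2 fold of each tested gene (transfected minus untransfected, on log2(TPM + 1)) under the deposited scale and 3 other scalings; filled points passed and open ones did not. TXNIP and PRDX4 are the genes filled on the right under all 4, and 6 genes are filled on the left under the 3 other scalings.

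Other genes of the same pathways were read from 8 lists holding 172 symbols, of which 157 were listed and 147 tested. Of these, 22 rose and 21 fell (15% and 14.3%, beside 20% and 10.2% of all tested genes), with a median log2 fold of 0.01. All 21 lower and 16 of the 22 higher calls were kept under the 3 other scalings. The counts depended on single libraries, as those of all genes did. Higher calls numbered 10 without transfected replicate 2 and 11 without transfected replicate 3, where 11.5% and 11.8% of all genes were higher. Lower calls numbered 9 without transfected replicate 2 or untransfected replicate 2, 13 without transfected replicate 3 and 10 without untransfected replicate 1. In these settings 6.07% to 6.87% of all genes were lower. Over all single libraries left out, the lists' lower calls ranged from 9 to 31 and the all-gene share from 6.07% to 12.6%. In all alternatives 10 of the higher and 8 of the lower calls held. Named below are at most the 3 largest changes in each direction of a list.

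Of 30 tested genes that are also described as NRF2 targets, 5 rose and 4 fell. The carbonyl reductase CBR3 (log2 fold 0.41) and the autophagy receptor SQSTM1 (0.34) rose. The transporter ABCC2 also passed as higher (0.48), at 1.19, 1.71 and 1.6 TPM in transfected against 0.81, 0.88 and 0.66 TPM in untransfected libraries. It reached the 1 TPM minimum only in the transfected libraries, so it was tested only through the group where it was higher. ABCC2 lost the call in 1 of the 3 other scalings (limma adjusted p = 0.0516). IDH1, the cytosolic NADPH-producing isocitrate dehydrogenase, fell (-0.57), as did TRIM16L (-0.35). SQSTM1 was at 62.0, 57.4 and 59.7 TPM in transfected against 48.3, 48.4 and 44.6 TPM in untransfected libraries (adjusted p = 0.00535), with no overlap. IDH1 and SQSTM1 kept their calls in all 16 alternatives, TRIM16L in 11 and CBR3 in 10.

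Among 19 genes of NRF2 degradation and related factors, 3 rose and 3 fell. BACH2, a relative of BACH1, rose (0.41), with NGLY1 (0.39), a deglycosylase that acts on the related factor NFE2L1, and CUL1 (0.36), a ubiquitin ligase scaffold. SYVN1, an endoplasmic reticulum ubiquitin ligase, fell (-0.30), with the NRF2 relative NFE2L3 (-0.27) and DPP3 (-0.24), which binds KEAP1. Of these, BACH2 alone kept its call in all 16 alternatives, CUL1 and NGLY1 in 14 and SYVN1 in 12. The calls of NFE2L3 and DPP3 were marginal (limma adjusted p 0.0455 and 0.0495), kept in 9 and 7 of the 16. Leaving out a single library raised these to as much as 0.133 and 0.163.

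Among 23 other glutathione and glutaredoxin genes, 2 rose and 5 fell. The aminopeptidase ANPEP (0.45) and the monothiol glutaredoxin GLRX3 (0.44) rose. ANPEP was near the 1 TPM minimum, at 1.95, 1.77 and 1.48 TPM in transfected against 0.97, 1.08 and 0.95 TPM in untransfected libraries. It lost the call in 1 of the 3 other scalings (limma adjusted p = 0.0524). The transferases GSTM4 (-0.85), GSTM2 (-0.32) and GSTK1 (-0.30) fell. GSTM2 kept its call in 10 of 16 alternatives and GSTK1 in 15. GSTM4 was at 1.74, 2.46 and 2.34 TPM in transfected against 4.71, 4.82 and 4.56 TPM in untransfected libraries (adjusted p = 0.00168), but the GSTM genes are close copies, so how reads were divided between them is uncertain.

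Of 18 other thioredoxin-fold and methionine sulfoxide reductase genes, 2 rose, TXNL4B (0.32) and TXNL1 (0.28), and 2 fell. The latter were MSRB1 (-0.41), which repairs oxidised methionine, and SESN3 (-0.37), a sestrin. TXNL4B and TXNL1 each kept the call in 11 of 16 alternatives. Of 18 genes for selenoproteins, their synthesis or selenium binding, 3 rose and 2 fell. SELENOS (0.51), of endoplasmic reticulum protein degradation, EEFSEC (0.40) and SEPSECS (0.39), both needed to insert selenocysteine, rose. SELENOW (-0.37) and the selenium-binding protein SELENBP1 (-0.36) fell. SEPSECS kept its call in 12 of 16 alternatives and SELENOW in 11.

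Of 15 other NADPH and pentose phosphate genes, 2 rose and 2 fell. The folate enzymes MTHFD1L (0.55) and MTHFD1 (0.39) rose, and the mitochondrial NADPH producers NNT (-0.32) and IDH2 (-0.22) fell. NNT and IDH2 each kept the call in 11 of 16 alternatives. Of 17 genes of haem and iron handling, 3 rose and 2 fell. NCOA4 (0.52), which delivers ferritin to autophagy, ALAS1 (0.24), the first enzyme of haem synthesis, and the iron chaperone PCBP1 (0.23) rose; ALAS1 and PCBP1 lost the call in 1 of the 3 other scalings (adjusted p 0.0660 and 0.0585). PPOX (-0.63), a late haem-synthesis enzyme, and the iron exporter SLC40A1 (-0.47) fell. SLC40A1 kept its call in 14 of 16 alternatives, ALAS1 in 11 and PCBP1 in 10.

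The last list held MondoA (MLXIP), its partners and the alpha-arrestins related to TXNIP. Of 7 tested, 2 rose and 1 fell. ARRDC4 was at 142, 151 and 153 TPM in transfected against 98.6, 100.3 and 80.0 TPM in untransfected libraries (log2 fold 0.68, adjusted p = 0.00159). ARRDC3 was at 29.4, 33.1 and 31.8 TPM against 19.9, 18.4 and 15.0 TPM (log2 fold 0.80, adjusted p = 0.00155). Both were higher in every transfected library, as TXNIP was. ARRDC1 was at 9.22, 10.4 and 9.69 TPM against 15.2, 15.4 and 17.0 TPM (log2 fold -0.65, adjusted p = 0.00124), lower in every transfected library. These 3 calls held in all 16 alternatives.

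**Figure D4:**
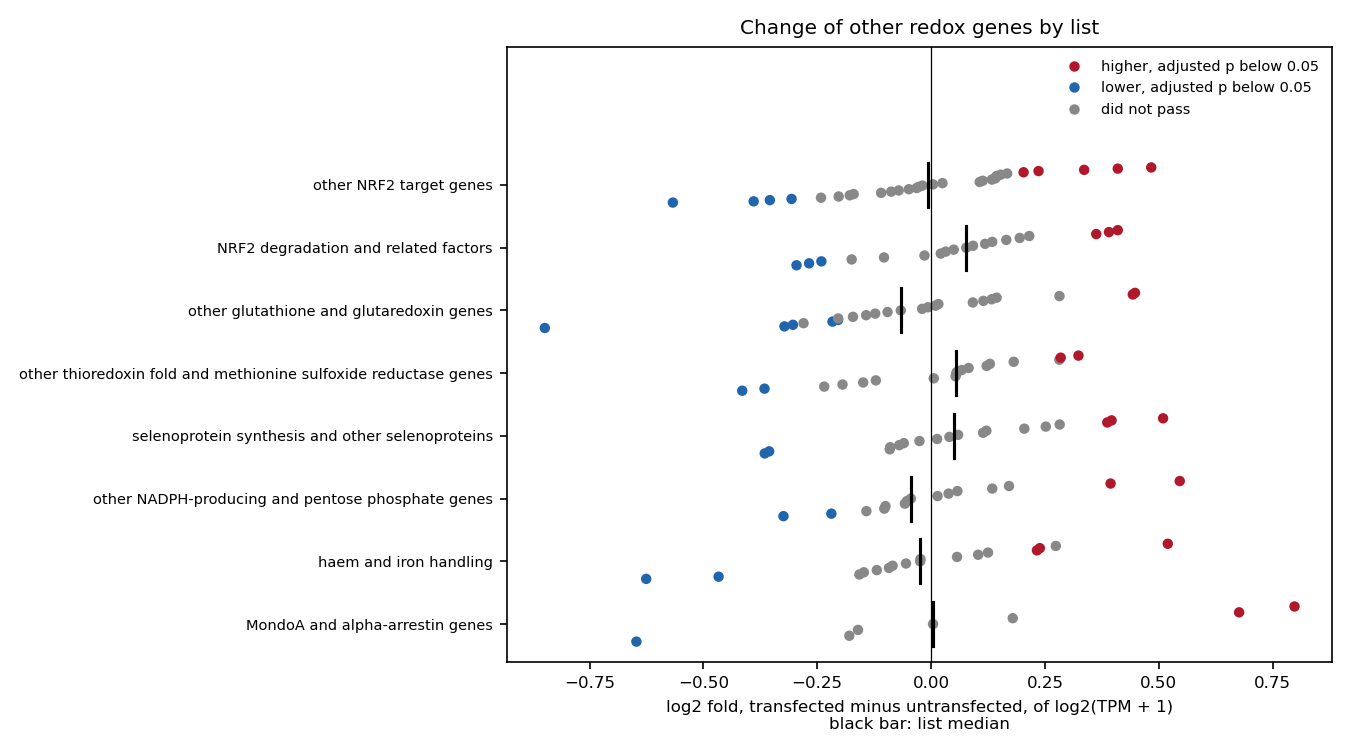
Log2 fold (transfected minus untransfected, on log2(TPM + 1)) of every tested gene in the 8 other lists, 1 point per gene, coloured by call, with a black bar at each list's median. Points of both directions lie in each of the 8 other lists, and the medians of these 8 lie between -0.07 and 0.08.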

How the data were processed

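Total RNA of 6 libraries, 10000000 cells each, was made into stranded libraries and read as 75 nt pairs, per the labels' protocols. The authors deposited TPM per gene. Per the submitters' processing notes, STAR and GRCh38 were used. How reads were counted, on which strand and with which annotation is not given in the sources used here. Deposited columns sum to 1000000 TPM, so depth is unknown and no counting interval is given. After dropping 134 rows that repeat an ID, 18164 genes remained.

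The 16145 genes that reached 1 TPM in 3 or more libraries were tested on log2(TPM + 1), a scale that understates the change of low genes, with limma 3.58.1 in R 4.3.3 (group as the only term, variance trend, two-sided) and Benjamini-Hochberg adjustment over all of them at 0.05. The script was tested on simulated data. Within-library ratios used an exact two-sided permutation test; of 7 planned, 6 were computed, since SOD2 was not found by symbol. Coordinates are from GENCODE 29 on GRCh38, sequences from RefSeq on GRCh38.p14. Alternatives were pseudocounts of 0.1 and 5, no filter or one of 5 TPM, 3 other scalings (median ratio, quantile, and rescaling that omits mitochondrial genes and the top 20 by level), no variance trend, a replicate block, and leaving out libraries. Any member could be named, and of each other list up to 3 genes that passed in each direction; a gene that this rule took is not reported here. Members and lists were chosen with earlier results of these data known.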

Additional observations from a re-analysis of the deposited data

How the results depend on the processing

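Of 543 values of single genes under the alternatives, 447 kept direction and side of the threshold, 33 lost and 29 gained a call, and 34 changed sign, none of them called; the causes were not tested. Lower calls in the module numbered 1 with no filter or no variance trend, 6 with median-ratio scaling, 8 with quantile normalization, 7 without mitochondrial and the 20 most abundant genes, and 7 without transfected replicate 1 and untransfected replicate 3 together; higher calls were 2 in each of the latter 2 scalings. Over all genes those 3 scalings gave 2789, 2887 and 3240 lower calls (17.3%, 17.9% and 20.1% of those tested). In the 8 other lists, with 147 genes tested on the deposited scale, the same scalings gave 36, 36 and 41. The lists' share of lower calls was above that of all genes in each, as on the deposited scale (14.3% beside 10.2%). The module's median was -0.0449 with quantile normalization and -0.0511 under the last of these scalings. Leaving out single libraries gave 2 to 4 higher and 0 to 6 lower calls in the module (median -0.0261 to 0.0689). Over all genes it gave 1820 to 2955 higher and 965 to 2027 lower calls (11.5% to 18.4% and 6.07% to 12.6%). In the 8 lists it gave 10 to 19 higher and 9 to 31 lower calls. The labels do not say whether same-numbered samples of the 2 groups belong together. Their deviations from group means correlated at -0.184, 0.107 and -0.164, which cannot show whether they were handled together. With the number as a replicate block, the module had 2 higher and 0 lower calls (TKT, MAFF, HMOX1 and CAT at limma adjusted p 0.117, 0.0623, 0.0799 and 0.0816). With that block the 8 lists had 12 lower calls, and all genes 2392 higher and 1137 lower (14.8% and 7.04%). Signs changed under median-ratio scaling for GCLM (-0.013), SOD1 (-0.038), ME1 (-0.02) and NQO1 (-0.0227); under quantile normalization for GCLM (-0.0015), GSR (-0.0589), SOD1 (-0.0599), PGD (-0.0073) and ME1 (-0.0422); without mitochondrial and the 20 most abundant genes for KEAP1 (-0.0082), BACH1 (-0.0072), GCLM (-0.0432), GSR (-0.0311), SOD1 (-0.0695), PGD (-0.0062), ME1 (-0.051) and NQO1 (-0.0511); and without the 2 libraries for KEAP1 (-0.0023), TXN2 (0.0063), ME1 (-0.0059) and NQO1 (-0.0136). Leaving out single libraries moved BACH1 between -0.0367 and 0.1417, GCLM -0.0379 and 0.1004, GSR -0.0156 and 0.1051, GPX1 -0.0895 and 0.0039, TXN2 -0.0239 and 0.024, PRDX6 -0.1496 and 0.036, SOD1 -0.0148 and 0.0593, ME1 -0.0589 and 0.1029, and NQO1 -0.0315 and 0.1146. Depth is unknown, so what it limits could not be assessed.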

Other observations

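A deposited row without a symbol, ENSG00000112096, carries the name SOD2, the mitochondrial superoxide dismutase, in GENCODE 29, while the name table pairs SOD2 with another ID. It was at 25, 29.9 and 28.4 TPM in transfected and 31.3, 29.8 and 25.6 TPM in untransfected libraries, with the groups overlapping (log2 fold -0.06, limma adjusted p = 0.696). It was not counted among the 35 listed genes.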
